A study of Mus musculus with 40 samples.

Results

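The enzymes that build triglyceride in the liver, together with the protein that loads it onto lipoproteins, were followed as a set of 10 named genes: Gpd1, Gpam, Agpat2, Agpat3, Lpin1, Lpin2, Mogat1, Dgat1, Dgat2 and Mttp. The members were chosen by gene symbol, and they are 10 of 21448 symbols and 17 of 30146 probes in the deposited count table. All 17 probes passed the filter on low counts, those of Mogat1 only through the groups where they were high. Each gene is described on its most counted probe unless stated otherwise. Mttp is a transfer protein and not an enzyme of the synthesis itself.

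Livers came from 40 wildtype Crl:CD1(ICR) mice given GenX, the ammonium salt of a perfluoroalkyl ether carboxylic acid used to make fluoropolymers, by oral gavage for 90 days. Each sex was split over 4 daily doses, 0 for the control mice, then 0.1, 0.5 and 5 mg/kg of body weight, with 5 mice in each of the 8 groups, and the control mice received deionized water. RNA was measured in sections of fixed, paraffin-embedded liver with TempO-Seq, an assay that joins paired detector oligonucleotides hybridized at neighbouring stretches of a transcript and counts the products by sequencing. Mouse 355, from the female group at 0.5 mg/kg, had a library of 6711981 reads, below the limit of 9680193 set at 2 SD under the mean, and was left out, which left 4 mice in that group. The other 39 libraries held 10341341 to 15562253 reads. Levels are given as CPM, reads of a probe rescaled to a common library size with TMM, so they are compared between mice and not between genes. Counts above 5 were most often 35 reads, with 4355 values at that count, called the most common count below. Counts of 5 or fewer were left out of that search. The rarest count from 1 to 35 was 7 reads, with 565 values, so that a value of a few CPM rests on very few such steps. The reads carry no molecular identifiers and are not independent molecules. The floor used for Mogat1 below therefore covers only counting error in the controls, while each SD and SE describes the spread between mice.

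Hepatocytes make triglyceride mainly by the glycerol 3-phosphate pathway, in which fatty acids are added stepwise to glycerol 3-phosphate to give lysophosphatidic acid, phosphatidic acid, diacylglycerol and then triglyceride. Diacylglycerol is also the branch point toward phosphatidylcholine and phosphatidylethanolamine, and a parallel route makes it by acylating monoacylglycerol. The product is stored in lipid droplets or loaded onto apolipoprotein B for export as very low density lipoprotein (VLDL).

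In GRCm38, the assembly also called mm10 that the submitters' processing notes name, GENCODE places all 10 genes as protein coding. Gpd1 spans bases 99717515 to 99725005 of chromosome 15, Dgat1 bases 76502015 to 76511953 of chromosome 15, Dgat2 bases 99153658 to 99182719 of chromosome 7 and Mttp bases 138089854 to 138144968 of chromosome 3. Agpat3 spans bases 78269178 to 78352489 of chromosome 10 and Lpin2 bases 71182560 to 71249817 of chromosome 17. RefSeq promoter windows of GRCm38.p6 were matched by symbol for 7 of the 10 members, and the 250 bases before each start were searched on both strands. The windows below are shown for Lpin1 and Agpat2, which fell at 5 mg/kg, and for Gpam and Mogat1, which rose, because these 4 lie before the first base of the GENCODE gene. Mogat1 (chromosome 1, bases 78510991 to 78538173, plus strand) is given up to the GENCODE start, and Lpin1 (chromosome 12, 16535669 to 16610966), Agpat2 (chromosome 2, 26593057 to 26604417) and Gpam (chromosome 19, 55067268 to 55127238) lie on the minus strand and are printed 5′ to 3′ on that strand. Capitals mark AGGTCA, the core element bound by nuclear receptors, CACGTG (the E-box), TATAAA and CCAAT, on either strand.
Lpin1, minus strand, chr12:16610967-16611216: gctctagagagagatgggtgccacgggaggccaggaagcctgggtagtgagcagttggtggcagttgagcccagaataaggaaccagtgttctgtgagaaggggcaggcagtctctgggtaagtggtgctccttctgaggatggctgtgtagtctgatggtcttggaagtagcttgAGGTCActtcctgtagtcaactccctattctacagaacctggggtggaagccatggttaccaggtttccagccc
Agpat2, minus strand, chr2:26604418-26604667: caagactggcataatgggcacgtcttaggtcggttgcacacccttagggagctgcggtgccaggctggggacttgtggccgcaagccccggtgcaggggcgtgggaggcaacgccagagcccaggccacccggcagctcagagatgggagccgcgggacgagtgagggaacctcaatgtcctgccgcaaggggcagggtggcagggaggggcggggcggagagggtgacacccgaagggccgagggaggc
Gpam, minus strand, chr19:55127239-55127488: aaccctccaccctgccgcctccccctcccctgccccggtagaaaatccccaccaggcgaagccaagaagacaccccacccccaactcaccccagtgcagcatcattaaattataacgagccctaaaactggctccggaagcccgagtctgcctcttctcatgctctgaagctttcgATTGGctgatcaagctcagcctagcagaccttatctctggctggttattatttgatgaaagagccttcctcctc
Mogat1, plus strand, chr1:78510810-78510990: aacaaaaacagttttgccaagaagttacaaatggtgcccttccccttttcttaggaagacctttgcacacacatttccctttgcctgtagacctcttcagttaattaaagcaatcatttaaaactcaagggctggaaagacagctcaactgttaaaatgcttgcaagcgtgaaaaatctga

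The Lpin1 window held 1 AGGTCA, at 74 to 69 bases before the start, and the window of the other Gpam start held 1 at 196 to 191 bases, while 14% of all 32851 promoter windows of that length held at least 1. The Gpam window shown held CCAAT at 74 to 70 bases before the start, read on the opposite strand, a motif present in 33.8% of all windows. None of these letters was found in the windows of Agpat2 and Mogat1, which says nothing about binding elsewhere. CACGTG was found in 6.02% of all windows and, among the members, in 1 of 3 Lpin2 windows at 9 to 4 bases before the start. Copies of AGGTCA repeated 1 base apart, which also count as AGGTCA, were found in 0.0335% of all windows and in none of the members', and TATAAA in 12.4% and in none of the members'.

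At 5 mg/kg, 6 of the 10 members changed for males and 4 for females at an adjusted p below 0.1, the threshold used throughout for edgeR's quasi-likelihood test over all 17877 probes tested. In males at 5 mg/kg, Lpin2, Mogat1 and Mttp rose and Agpat2, Lpin1 and Dgat2 fell, that is 3 of 10 in each direction, where 4.83% of all probes rose and 3.45% fell. Mogat1 passed the filter on low counts only through groups where it was high. Its place in these counts is therefore no support for a rise of the set, and without it only Lpin2 and Mttp rose. In females at 5 mg/kg, Gpd1, Gpam and Mttp rose and Lpin1 fell, where 1.83% of all probes rose and 1.83% fell. Lpin1 and Mttp therefore passed the test in both sexes, and Agpat3 and Dgat1 passed it in neither. At 5 mg/kg the median log2 fold change of the members was 0.47 for males and 0.53 for females, and over all probes it was 0.10 and -0.01. The male median of the members is the same with Mogat1 set at its value against the floor given below. The male median over all probes was 0.03 with the size factors of DESeq2 in place of TMM. The dose groups of a sex are compared with the same control mice, so their results are not independent.

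Adding the library of mouse 355 back to the fit changed the calls of other groups too. Agpat2, Mogat1 and Dgat2 in males and Lpin1 in both sexes were still called at 5 mg/kg. The adjusted p rose to 0.63 for Gpd1 and 0.101 for Mogat1 in males at 0.5 mg/kg, and to 0.158 for Lpin2 and 0.357 for Mttp in males at 5 mg/kg. For females at 5 mg/kg it rose to 0.325 for Gpd1, 0.322 for Gpam and 0.583 for Mttp. The fold changes of these genes stayed close to those given below.

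At 0.5 mg/kg, Gpd1 and Mogat1 rose in males and no member fell, where 1.74% of all probes rose and 0.638% fell. The limit on counting Mogat1 holds here too, and without it only Gpd1 rose. No member was called in females at 0.5 mg/kg by edgeR, where 0.185% of all probes rose and 0.028% fell. There, 3 members had an unadjusted p below 0.05, as did 1826 of the 17877 probes. DESeq2 called 1 member there, and 1.5% of the probes it tested. At 0.1 mg/kg no member was called in either sex by edgeR. In males at this dose 0.0336% of all probes rose and 0% fell. No member had an unadjusted p below 0.05, against 2435 of the 17877 probes, and DESeq2 called 0, against 1.36% of the probes it tested. In females at this dose 0% rose and 0% fell. There 1 member had an unadjusted p below 0.05, against 1843 of the 17877 probes, and DESeq2 called 1, against 0.822% of the probes it tested.

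The mice of a treated group all lay on one side of all control mice for 0, 3 and 3 members in males at 0.1, 0.5 and 5 mg/kg, and the same held for 0.587%, 3.34% and 8.48% of all probes. In females the counts were 0, 1 and 4 members, against 0.571%, 1.7% and 3.35% of all probes. The members were Gpd1, Mogat1 and Agpat2 in males at 0.5 mg/kg, Agpat2, Mogat1 and Dgat2 in males at 5 mg/kg, Gpd1 in females at 0.5 mg/kg, and Gpd1, Agpat3, Mogat1 and Mttp in females at 5 mg/kg. Mogat1 is counted here although it was tested only through groups where it was high.

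**Figure D1:**
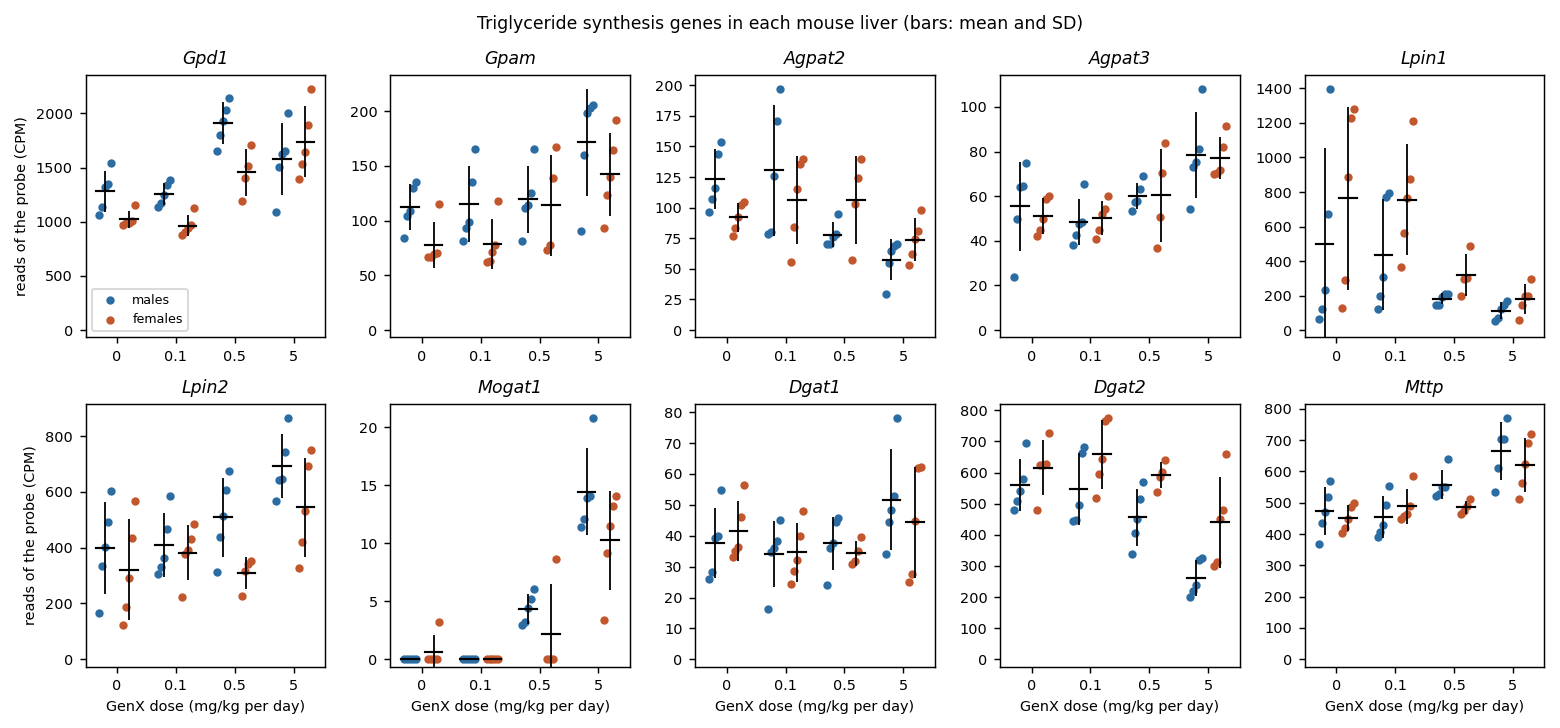
CPM of the most counted probe of each of the 10 genes (linear axis from 0) against GenX dose, with each mouse as a point, males in blue, females in orange, and bars for mean and SD. Mogat1 rises from 0 in every male control to 11.4 to 20.8 CPM in males at 5 mg/kg, Dgat2 and Agpat2 in males at 5 mg/kg lie below all male controls, and Lpin1 spreads from 61.6 to 1397 CPM among male controls.

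Gpd1, the cytosolic glycerol 3-phosphate dehydrogenase that makes the glycerol backbone, rose in 2 groups, males at 0.5 mg/kg and females at 5 mg/kg. Male controls had 1064, 1138, 1316, 1344 and 1541 CPM, and males at 0.5 mg/kg had 1652, 1804, 1927, 2032 and 2139 CPM, all above the controls. The log2 fold change was 0.58 ± 0.13 (SE), or 1.49-fold, with an adjusted p of 0.0075. At 5 mg/kg the males had 1087, 1506, 1628, 1656 and 2007 CPM, which overlapped the controls, with a log2 fold change of 0.30 ± 0.13 and an adjusted p of 0.181. Without mouse 402, the lowest of these males, the adjusted p was 0.0581. Here and below, a smaller adjusted p after leaving out a mouse with an extreme value is no support for a change.

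Female controls held 971, 985, 991, 1007 and 1156 CPM of Gpd1, and females at 5 mg/kg held 1392, 1534, 1646, 1895 and 2224 CPM. All treated females were above all control females, and the log2 fold change was 0.77 ± 0.13, or 1.7-fold, with an adjusted p of 6.45e-05. Females at 0.5 mg/kg, with 1187, 1403, 1516 and 1711 CPM, also lay above all controls, but the log2 fold change of 0.51 ± 0.14 had an adjusted p of 0.176. It was 0.0712 without mouse 351, the lowest of them. The groups at 0.1 mg/kg spanned 1138 to 1381 CPM of Gpd1 for males and 877 to 1126 CPM for females, overlapping the controls in both.

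Gpam, the mitochondrial acyltransferase that adds the first fatty acid to glycerol 3-phosphate, rose in females at 5 mg/kg. Female controls had 66.5, 66.8, 69.6, 70.8 and 115 CPM, and females at 5 mg/kg had 93.0, 123, 140.0, 164 and 192 CPM. The groups overlapped only through control mouse 151 at 115 CPM and treated mouse 453 at 93.0 CPM, and the log2 fold change was 0.87 ± 0.24, or 1.83-fold, with an adjusted p of 0.0297. Without mouse 452, the highest of the treated females, the adjusted p was 0.128. Male controls ranged from 83.8 to 135 CPM with a median of 108 CPM, and males at 5 mg/kg had 90.6, 159, 198, 203 and 205 CPM. The male log2 fold change of 0.61 ± 0.24 had an adjusted p of 0.141, and of 0.0409 without mouse 404, the only treated male inside the range of the controls.

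Agpat2 and Agpat3 make phosphatidic acid by adding the next fatty acid to lysophosphatidic acid, and only Agpat2 passed the test. Agpat2 held 96.8, 107, 116, 144 and 154 CPM in male controls and 29.6, 54.5, 64.5, 68.8 and 70.2 CPM in males at 5 mg/kg. Every treated male lay below every control, with a log2 fold change of -1.10 ± 0.25, to 0.466 of the control level, and an adjusted p of 0.00177. Males at 0.5 mg/kg, at 70.0, 70.7, 76.1, 78.5 and 95.1 CPM, were also below all controls, but the log2 fold change of -0.66 ± 0.25 had an adjusted p of 0.222. Agpat2 in females was 92.0 ± 11.8 CPM (SD, n = 5) without GenX, against 73.8 ± 17.4 CPM (SD, n = 5) in the group at 5 mg/kg, with a log2 fold change of -0.32 ± 0.25 and an adjusted p of 0.747.

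Agpat3 held 42.2, 44.8, 49.9, 58.7 and 60.1 CPM in female controls and 70.1, 70.4, 71.6, 82.1 and 91.2 CPM in females at 5 mg/kg, with no overlap. Its log2 fold change of 0.59 ± 0.23 had an adjusted p of 0.225. In males it was 0.50 ± 0.23 with an adjusted p of 0.194, with 55.5 ± 19.9 CPM (SD, n = 5) in controls against 78.4 ± 19.4 CPM (SD, n = 5) in treated mice, and the ranges overlapped.

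Lpin1 and Lpin2 encode lipins, the phosphatases that turn phosphatidic acid into diacylglycerol, and at 5 mg/kg in males Lpin1 fell while Lpin2 rose. Lpin1 spread more widely among the controls of each sex than the other 8 members with reads in all control mice, at 61.6, 123, 235, 675 and 1397 CPM in males and 128, 290.1, 889, 1228 and 1284 CPM in females. At 5 mg/kg males held 54.8, 67.8, 123, 145 and 168 CPM, and females held 59.2, 146, 196, 199.8 and 297 CPM. Treated mice overlapped the lower control mice, and none reached the 3 highest controls of its sex.

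The log2 fold change of Lpin1 at 5 mg/kg was -2.16 ± 0.54 in males, with an adjusted p of 0.00588, and -2.09 ± 0.54 in females, with an adjusted p of 0.0163. In males it was -1.29 with an adjusted p of 0.152 without control mouse 104, which held 1397 CPM. At 0.5 mg/kg the values drew together, at 148 to 211 CPM in 5 males and 198 to 490 CPM in 4 females. The log2 fold changes of -1.46 ± 0.53 and -1.25 ± 0.57 had adjusted p values of 0.2 and 0.485. At 0.1 mg/kg the range was 122 to 791 CPM in males and 367 to 1212 CPM in females.

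Lpin2 held 167, 333, 403, 493 and 604 CPM in male controls and 568, 644, 646, 742 and 864 CPM in males at 5 mg/kg, and 1 control, mouse 105, lay above the lowest treated mouse. The log2 fold change was 0.79 ± 0.28, or 1.73-fold, with an adjusted p of 0.0817. This call was kept in only 3 of the 10 fits that left out 1 of these mice, with adjusted p values up to 0.23, and mice 101, 102, 103, 401, 402, 404 and 405 each ended it. Female controls held 125, 187, 292, 436 and 567 CPM and females at 5 mg/kg 329, 419.8, 529.7, 693 and 751 CPM, which overlapped. The female log2 fold change was of like size, 0.76 ± 0.28, with an adjusted p of 0.18, and with an adjusted p of 0.0258 without control mouse 155, the highest control.

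Mogat1, a monoacylglycerol acyltransferase of the parallel route to diacylglycerol, was counted in few mice outside the higher doses. It had reads in 17 libraries and passed the filter on low counts only through the higher doses, so its being tested was not independent of dose. All 5 male controls and all 10 mice of both sexes at 0.1 mg/kg had 0 reads, and 1 of 5 female controls, mouse 151, had 38 reads or 3.23 CPM. Males at 0.5 mg/kg held 3.00, 3.24, 4.39, 5.16 and 6.09 CPM, and males at 5 mg/kg held 11.4, 12.1, 13.96, 14.1 and 20.8 CPM. The male groups at 0, 0.5 and 5 mg/kg did not overlap.

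Against a floor of 3 times the most common count, that is 105 reads over the whole control group, Mogat1 was 2.56-fold higher in males at 0.5 mg/kg and 8.44-fold higher at 5 mg/kg. The adjusted p values were 0.0247 and 0.00196. The floor uses the pooled count, but the most common count of a library was 34 to 42 reads in male controls and 21 to 28 in males at 5 mg/kg. Their libraries had 12085 to 12668 and 14027 to 14883 probes with reads. Detection near 0 may thus differ with dose in males, and these folds are not strict lower bounds. With counts expressed in units of the most common count of each library, an alternative chosen after seeing the data, the adjusted p at 0.5 mg/kg was 0.117, so that call was lost. The call at 5 mg/kg held under all 7 alternatives, with adjusted p values up to 0.00778.

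Females at 0.5 mg/kg held 0, 0, 0 and 8.64 CPM of Mogat1, the last in mouse 353, and females at 5 mg/kg held 3.36, 9.18, 11.5, 13.2 and 14.1 CPM, above all 5 controls. Their level was 10.3 ± 4.28 CPM (SD, n = 5) against 0.646 ± 1.44 CPM (SD, n = 5) in controls, with an adjusted p of 0.258. The adjusted p was 0.00692 without control mouse 151 and 0.00382 in units of the most common count. Mouse 151 was the only female control with reads, so leaving it out puts all controls at 0. The smaller p without it is no support for a rise.

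Dgat1 and Dgat2 are the unrelated enzymes that add the last fatty acid to make triglyceride, and Dgat2 alone passed the test. Dgat2 held 481, 507, 541, 579 and 693 CPM in male controls and 199.8, 219, 240.0, 320.1 and 324 CPM in males at 5 mg/kg. All treated males lay below all controls, with a log2 fold change of -1.10 ± 0.18, to 0.465 of the control level, and an adjusted p of 7.24e-06. Males at 0.5 mg/kg had 338, 404, 452, 516 and 569 CPM, which overlapped the controls and lay above every male at 5 mg/kg. Their log2 fold change against controls was -0.30 ± 0.17 with an adjusted p of 0.431.

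Female controls held 478, 624, 625, 628 and 726 CPM of Dgat2 and females at 5 mg/kg held 299, 313, 452, 479.7 and 659 CPM, which overlapped. The log2 fold change was -0.48 ± 0.17 with an adjusted p of 0.167, and it was -0.68 with an adjusted p of 0.0162 without mouse 453, the highest treated female. Dgat1 was 37.7 ± 11.5 CPM (SD, n = 5) in male controls, and the males at 5 mg/kg held 51.6 ± 16.3 CPM (SD, n = 5), with a log2 fold change of 0.45 ± 0.28 and an adjusted p of 0.382. In females its log2 fold change at 5 mg/kg was 0.10 ± 0.27.

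Mttp, the microsomal triglyceride transfer protein that loads triglyceride onto apolipoprotein B, rose in both sexes at 5 mg/kg. Male controls held 369, 437, 472, 517 and 569.5 CPM and males at 5 mg/kg 535, 609, 703, 704 and 770.0 CPM, and only control mouse 103 lay above the lowest treated male. The log2 fold change was 0.49 ± 0.13, or 1.41-fold, with an adjusted p of 0.00848. Female controls held 402, 420.3, 448, 486 and 499 CPM and females at 5 mg/kg 511, 562, 623, 692 and 718 CPM, with no overlap. The log2 fold change was 0.46 ± 0.13, or 1.38-fold, with an adjusted p of 0.03, and of 0.12 without mouse 455, the highest treated female. The groups at 0.5 mg/kg held 558 ± 46.4 CPM (SD, n = 5) of Mttp for males and 485 ± 20.6 CPM (SD, n = 4) for females, with adjusted p values of 0.333 and 1.

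**Figure D2:**
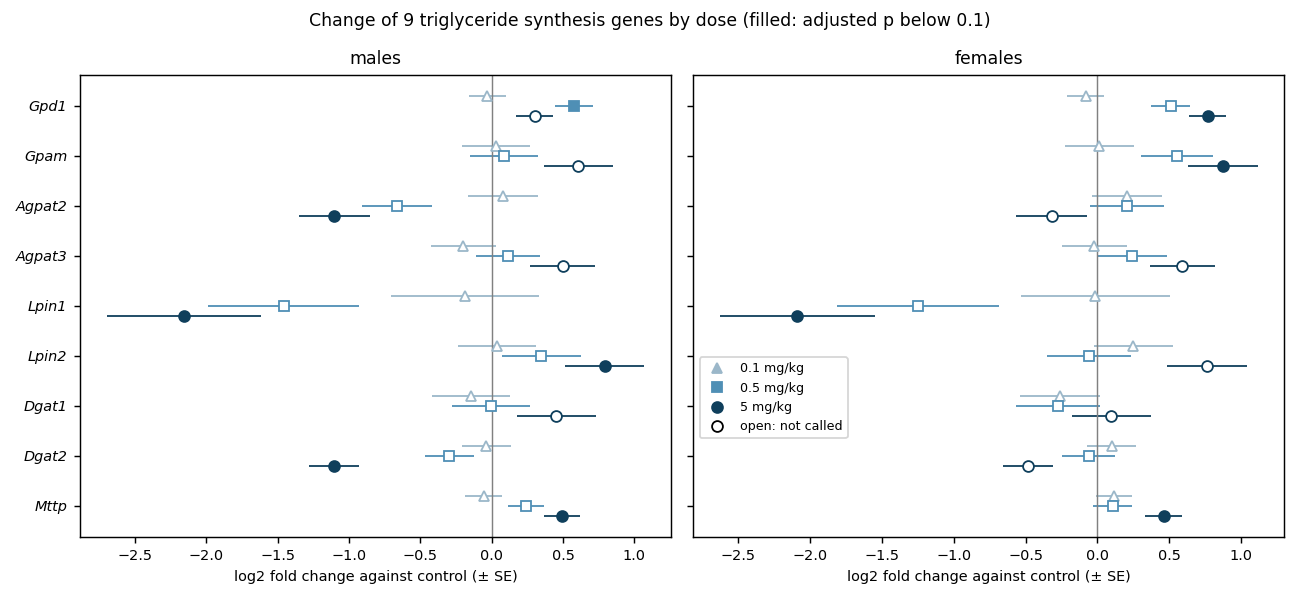
Log2 fold change against the controls of the same sex, with SE, for 9 of the 10 genes at 0.1 (triangles), 0.5 (squares) and 5 mg/kg (circles), with males on the left and females on the right and filled symbols for adjusted p below 0.1. Mogat1 is left out because its control mice were at or near 0 reads. Lpin1 lies near -2.16 and -2.09 at 5 mg/kg, Mttp near 0.49 and 0.46, and Agpat2 and Dgat2 fall to -1.10 in males.

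From 0.5 to 5 mg/kg, Dgat2 fell further in males, with a log2 fold change of -0.81 ± 0.17 and an adjusted p of 0.00342, and no other member was called. Over all probes, 0.973% rose and 1.67% fell in this step. In females no member was called in the same step by edgeR, while 0.571% of all probes rose and 0.66% fell. There 4 members had an unadjusted p below 0.05, against 2479 of the 17877 probes, and DESeq2 called 1, against 2.84% of the probes it tested.

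No member's response was shown to differ between the sexes at any dose by the interaction test of edgeR, where 0%, 0.274% and 1.04% of all probes were called at 0.1, 0.5 and 5 mg/kg. At an unadjusted p below 0.05 there were 0, 2 and 4 members, against 1504, 1951 and 2210 of the 17877 probes. DESeq2 called 1, 1 and 2 members, against 1.07%, 1.93% and 2.69% of the probes it tested. At 5 mg/kg, the male minus female difference in log2 fold change was -0.78 ± 0.35 for Agpat2 (adjusted p = 0.336), -0.62 ± 0.25 for Dgat2 (adjusted p = 0.247) and -0.47 ± 0.18 for Gpd1 (adjusted p = 0.246). For Lpin1 it was -0.07 ± 0.73 and for Mttp 0.03 ± 0.18. Control females did not differ from control males in any member at the threshold by edgeR, where 3.49% of all probes were called. For 3 members the unadjusted p between controls was below 0.05, against 3374 of the 17877 probes. DESeq2 called 2 members there, against 5.41% of the probes it tested.

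Genes with several probes gave a check on these values. The other well counted Lpin1 probe also fell at 5 mg/kg, at -1.75 ± 0.50 for males (adjusted p = 0.0188) and -1.89 ± 0.50 for females (adjusted p = 0.0205) on the log2 scale, and the least counted Lpin1 probe, at -1.24 ± 1.08 and -1.66 ± 1.09, did not pass. The other Dgat2 probe fell in males, at -0.90 ± 0.24 (adjusted p = 0.0114), and was at -0.32 ± 0.24 in females (adjusted p = 0.711). Neither of the other Lpin2 probes was called, with log2 fold changes of 0.58 ± 0.30 and 0.80 ± 0.48 in males. The other Dgat1 probe was not called in males either, at 0.60 ± 0.35 (adjusted p = 0.334). Its treated males, at 31.8 to 44.7 CPM, all lay above the male controls, at 16.7 to 29.5 CPM, and its female ranges overlapped. The other Mogat1 probe had reads only at 5 mg/kg, in all 5 males and in 3 of 5 females, with adjusted p values of 0.104 and 0.202. It passed the filter on low counts only through these mice, so it is a weak check.

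**Figure D3:**
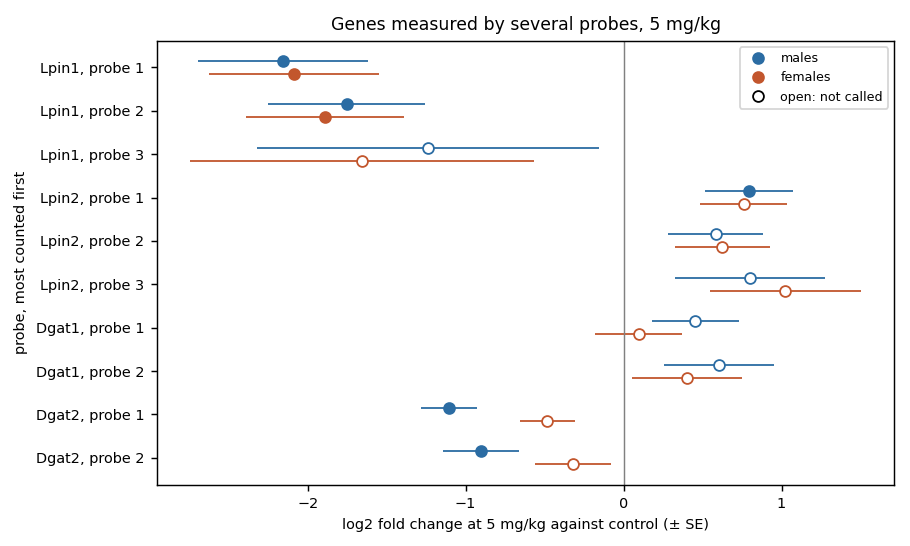
Log2 fold change at 5 mg/kg, with SE, for each probe of the 4 genes with several probes other than Mogat1, males in blue, females in orange, and open circles for probes that were not called. All 3 Lpin1 probes lie below 0 and all 3 Lpin2 probes above 0 in both sexes, and the 2 Dgat2 probes lie further below 0 in males than in females.

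Gpd1, Lpin1, Mogat1 and Mttp were each called in 2 of the 6 dose comparisons. Mogat1 had the largest change of these, also when set against its floor, at a log2 fold change of 3.08 in males at 5 mg/kg. The 8 group means of log2 CPM of Mogat1 were compared with those of 12411 other tested genes. The closest were Slc35f2, with a Pearson r of 0.984, Eci1, an isomerase of mitochondrial fatty acid oxidation, with 0.983, Rpl21-ps4, a pseudogene symbol whose reads cannot be told apart from near-identical copies, with 0.981, Pex11a, a peroxisomal membrane protein, with 0.980, and Dlst, a subunit of the 2-oxoglutarate dehydrogenase complex, with 0.978. These are descriptions over 8 groups that share their libraries.

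Of 15 other enzymes of the same steps, 11 were tested, and 2 rose and 1 fell in males at 5 mg/kg, 1 rose and 1 fell in males at 0.5 mg/kg, and 1 rose in females at 5 mg/kg. Gpat3, a glycerol 3-phosphate acyltransferase of the endoplasmic reticulum, went in males from 22.003 ± 9.58 CPM (SD, n = 5) without GenX to 40.9 ± 6.22 CPM (SD, n = 5) under 0.5 mg/kg and to 93.8 ± 30.7 CPM (SD, n = 5) under 5 mg/kg. On the log2 scale these rises were 0.89 ± 0.25 (adjusted p = 0.0557) and 2.09 ± 0.26 (adjusted p = 3.83e-08), and the call at 0.5 mg/kg held in 4 of 10 fits that left out 1 mouse (lost without mice 101, 103, 104, 301, 302 or 305). In females at 5 mg/kg Gpat3 rose by 1.04 ± 0.25 (adjusted p = 0.00954). Gk, the glycerol kinase, rose in males at 5 mg/kg by 0.92 ± 0.25 (adjusted p = 0.0135), and Plpp3, a lipid phosphate phosphatase, fell there, at -0.98 ± 0.27 (adjusted p = 0.0128), and at 0.5 mg/kg, at -0.89 ± 0.27 (adjusted p = 0.0799), the latter lost without mice 101, 104, 105, 303, 304 or 305. The median log2 fold change of the 11 genes at 5 mg/kg was -0.02 in males and 0.16 in females.

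Of 18 genes of the phospholipid branch, 14 were tested, and Chpt1, the last enzyme of phosphatidylcholine synthesis from diacylglycerol, rose in 4 of the 6 dose comparisons. The male rises were 1.03 ± 0.18 at 0.5 mg/kg and 0.61 ± 0.18 at 5 mg/kg, and the female ones 0.80 ± 0.19 and 1.34 ± 0.18, all on the log2 scale, with adjusted p values of 0.000339, 0.0266, 0.0613 and 6.95e-07. The call in females at 0.5 mg/kg was lost without mice 151, 152, 154, 352, 353 or 354, and that in males at 5 mg/kg without mice 105 or 403. Cept1, which makes both phosphatidylcholine and phosphatidylethanolamine, rose in males at 5 mg/kg by 0.52 ± 0.15 (adjusted p = 0.0172). Pemt, which methylates phosphatidylethanolamine to phosphatidylcholine, fell at 5 mg/kg in males, at -0.73 ± 0.15 (adjusted p = 0.000345), and in females, at -0.61 ± 0.15 (adjusted p = 0.00786). Pgs1 was also called up in males at 5 mg/kg, but it was at 0 in all 5 male controls and at 4.16 ± 3.39 CPM (SD, n = 5) in the treated males, and the call was lost without any 1 of the 5 controls and without mice 401, 402 or 404.

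Of 6 partners of Mttp in VLDL assembly, all tested, 4 fell and none rose in males at 5 mg/kg, 3 fell at 0.5 mg/kg, and 1 fell in females at 5 mg/kg. Apob, the apolipoprotein that Mttp loads, was 559.8 ± 43.4 CPM (SD, n = 5) in male controls, and it fell to 416 ± 33.6 CPM (SD, n = 5) under 0.5 mg/kg and to 365 ± 47.8 CPM (SD, n = 5) under 5 mg/kg. On the log2 scale Apob stood at -0.43 ± 0.13 (adjusted p = 0.0924) and -0.62 ± 0.13 (adjusted p = 0.000814). The call at 0.5 mg/kg held in 2 of 10 fits that left out 1 mouse, without mouse 104 or 301, and that at 5 mg/kg in all 10. P4hb, protein disulfide isomerase and the partner subunit of Mttp, fell at 5 mg/kg in males, at -0.46 ± 0.15 (adjusted p = 0.056), and in females, at -0.53 ± 0.15 (adjusted p = 0.0402). Cideb and Surf4, which act in VLDL lipidation and export, fell in males at 5 mg/kg, at -0.44 ± 0.14 (adjusted p = 0.0417) and -0.68 ± 0.23 (adjusted p = 0.0625). Tm6sf2, named after its values were seen, fell in males at 0.5 mg/kg, at -1.26 ± 0.34 (adjusted p = 0.0416), and was lost without mice 101, 102, 103, 302 or 305. In males at 5 mg/kg, the calls of P4hb, Cideb and Surf4 each held in 6 of 10 such fits, and P4hb in females in 8 of 10. They were lost for P4hb without mice 103, 401, 403 or 405 in males and 454 or 455 in females, for Cideb without mice 102, 103, 403 or 405, and for Surf4 without mice 101, 103, 403 or 404.

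Of 11 transcriptional regulators of triglyceride synthesis, all tested, 2 fell at 5 mg/kg in males, 1 fell at that dose in females, and none rose at any dose. Hnf4a, a nuclear receptor of hepatocyte identity, fell at 5 mg/kg in males, at -0.80 ± 0.16 (adjusted p = 0.000497), and in females, at -0.56 ± 0.16 (adjusted p = 0.0439), and the female call was lost without mice 152 or 451. Rxra, the partner of many nuclear receptors, fell in males, at -0.35 ± 0.12 (adjusted p = 0.0821), in 4 of 10 fits that left out 1 mouse and not without mice 101, 104, 105, 401, 402 or 403. Of 13 core clock genes, which were listed because Lpin1 is known to vary over the day, 12 were tested and none was called by edgeR in any of the 6 dose comparisons. Their SEs were wide, 0.34 for Clock to 2.92 for Per1 in males at 5 mg/kg, so large changes could be missed. Dbp, named after its values were seen, was at 2.93 ± 1.40, 3.35 ± 1.42 and 1.94 ± 1.36 in males by rising dose. In females Dbp was at 3.54 ± 1.44, -0.65 ± 1.46 and 3.90 ± 1.46, and its smallest adjusted p was 0.2. The median log2 fold change of the list at 5 mg/kg was 0.04 in males and -0.04 in females.

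The liver label was checked against marker lists. Of 6 hepatocyte markers, 5 were in the table and all 5 were tested, and Alb and Ttr were not called at any dose. Cps1, Ass1 and Hpd, enzymes of the urea cycle and of tyrosine breakdown, fell at 5 mg/kg in both sexes, with male log2 fold changes of -1.18, -1.29 and -0.92 and female ones of -1.02, -0.93 and -0.44. Ass1 also fell in males at 0.5 mg/kg, at -0.75 ± 0.14 (adjusted p = 0.000939), the group in which Gpd1 and Mogat1 rose. The summed CPM of the 5 markers was 17678 to 21455 in male controls, 14327.5 to 17249.8 in males at 0.5 mg/kg and 11292 to 13104 in males at 5 mg/kg, and 21735 to 26547 in female controls, 20661 to 23513 in females at 0.5 mg/kg and 14762 to 18409 in females at 5 mg/kg. Their part in the results on the members was not tested. In bulk tissue, fewer cells of a type and less RNA per cell cannot be told apart.

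None of 5 adipocyte markers passed the filter on low counts, and their summed level was at most 3.12 CPM in any mouse of any group. No Kupffer cell, cholangiocyte, lymphocyte or erythroid marker was called by edgeR in the 6 dose comparisons. Col1a1 of the stellate cell list rose in males at 5 mg/kg by 1.63 ± 0.53 (adjusted p = 0.0546), and Clec4g of the endothelial list fell there, at -0.61 ± 0.21 (adjusted p = 0.0688). The first call was lost without mice 101, 102 or 402, and the other without mice 102, 103, 401, 402 or 403. The summed level of the stellate list was 57.3 to 124 CPM in male controls and 121 to 143 CPM in males at 5 mg/kg, and of the endothelial list 115 to 147 CPM and 65.6 to 131 CPM. The part of these cells in the results on the members was not tested.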

How the data were processed

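The authors deposited raw counts, the number of reads assigned to each TempO-Seq probe in each mouse, without normalization. The submitters' processing notes name bcl2fastq 2.17.1.14, Bowtie and mm10, and their settings are not given in the sources used here. Libraries below the mean total by more than 2 SD were left out, as in the study, which removed 1 of 40. The 39 others were fitted in R 4.3.3 with edgeR 4.0.16 (TMM, default filter on low counts, 1 coefficient per sex and dose, quasi-likelihood F-test, two-sided). P values were adjusted by Benjamini and Hochberg over 17877 probes. The SE is the log2 fold change divided by the square root of F. Each dose group was compared with the controls of its sex, and doses and sexes were also compared directly, in 12 comparisons. DESeq2 1.42.0, its size factors in edgeR, no filter, all 40 libraries, fits of the compared groups alone, sums of probes per gene and leaving out each mouse were alternatives, and units of the most common count were added after seeing the data.

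The steps were tested on simulated data. Figures used matplotlib 3.10.9. Members, lists and tests were chosen with earlier results of these data known. Named genes were all members, up to 4 called genes of each other list with the smallest adjusted p at 5 mg/kg, and the 5 genes most like the member called most often, with ties settled by the largest log2 fold change. Tm6sf2, Sar1b and the clock genes were named outside this rule. Each mouse is 1 animal with its own number, so p values rest on the spread between mice. That spread is estimated over all 8 groups together, not over the 2 groups compared. The deposited counts were whole numbers, and no 2 libraries held identical values.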

Additional observations from a re-analysis of the deposited data

Results flagged for a closer look

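Of 77 member groups with any reads, 8 held 1 mouse far from the others by Dixon's ratio, and chance flags about 1 in 20 groups. Mogat1 accounted for 3 of them, at 3.23 CPM in female control mouse 151 and 8.64 CPM in mouse 353 of the females at 0.5 mg/kg, where all other mice were at 0, and at 20.8 CPM in mouse 404 of the males at 5 mg/kg, where the others held 11.4 to 14.1 CPM. With all other mice at 0 the ratio is 1 by construction, so the rate of 1 in 20 does not apply to mice 151 and 353 for Mogat1. Gpam reached 115 CPM in the same control mouse 151, against 66.5 to 70.8 CPM in the other female controls, and 118 CPM in mouse 252 of the females at 0.1 mg/kg, against 62.4 to 77.7 CPM. Gpd1 reached 1156 CPM in female control mouse 152, against 971 to 1007 CPM. Mttp reached 584 CPM in mouse 255 of the females at 0.1 mg/kg, against 449 to 488 CPM, and 638 CPM in mouse 301 of the males at 0.5 mg/kg, against 523 to 551 CPM.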

How the results depend on the processing

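With all 40 libraries, mouse 355 included, 0 members were called in males at 0.5 mg/kg (2 reported), 1 in females at 5 mg/kg (4 reported) and 0 in males from 0.5 to 5 mg/kg (1 reported). With DESeq2, 1 member was called in females at 0.1 mg/kg, 1 in females at 0.5 mg/kg, 1 in females from 0.5 to 5 mg/kg, 1, 1 and 2 for the difference between the sexes at 0.1, 0.5 and 5 mg/kg and 2 between controls, where none was reported. Those at 0.1 mg/kg and at least 1 in each other sex comparison were Mogat1, with groups at 0 reads, and the others Gpd1 or Mttp. DESeq2 called 0.822%, 1.5% and 2.84% of the probes it tested in females at 0.1, at 0.5 and from 0.5 to 5 mg/kg. Its shares were 1.07%, 1.93% and 2.69% for the difference between the sexes at 0.1, 0.5 and 5 mg/kg, and 5.41% between controls. Without the filter, 2 were called in females at 0.5 mg/kg, 1 in females from 0.5 to 5 mg/kg and 1 between controls, and with summed probes 1 between controls. Only the groups compared, and units of the most common count, gave 2 in males from 0.5 to 5 mg/kg, and the latter gave 1 in females from 0.5 to 5 mg/kg. The cause was not tested. Other counts stayed within 1.5 times those reported.

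Leaving out 1 mouse at a time, the counts ranged from 5 to 6 in males at 5 mg/kg, 2 to 3 in males at 0.5 mg/kg, 3 to 6 in females at 5 mg/kg, 0 to 1 in females at 0.5 mg/kg (1 without mouse 351), 0 to 1 in females from 0.5 to 5 mg/kg and for the difference between the sexes at 0.5 mg/kg (1 without mouse 353), and 0 to 1 between controls (1 without mouse 154 or 155). They stayed at 1 in males from 0.5 to 5 mg/kg and at 0 elsewhere. Of 835 single values of members under the other settings, 11 lost and 27 gained a call, and of 1470 with 1 mouse left out, 10 lost and 13 gained one. None that was called in either fit changed sign, and 13 and 96 that were called in neither did. For the genes of other lists, 57 of 1588 and 107 of 2793 values lost a call. The number of mice and, for Mogat1, the few steps of about 35 reads behind its values limit the precision. No paired analysis was possible because the animal numbers differ between groups.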

Other observations

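Relations between members within groups were examined after seeing the data, over 39 mice with the group mean subtracted from log2 CPM, for 57 pairs (45 pairs of members and Lpin1 with 12 clock genes). Lpin1 and Lpin2 had a Pearson r of 0.626 (permutation p = 0.00147, adjusted p = 0.0838) and a Spearman rho of 0.672 (permutation p = 0.00022, adjusted p = 0.0125), and r was 0.558 without the 2 mice farthest from the median of Lpin1. No other pair had an adjusted p below 0.1 by either measure. Of the 12 clock genes, Per1 had the smallest p of Pearson's r with Lpin1, at an r of -0.298 (permutation p = 0.101, adjusted p = 0.471) and a rho of -0.161 (permutation p = 0.334, adjusted p = 0.594), with an r of -0.221 without the 2 mice farthest from the median.

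The library of mouse 355, scaled with all 40 libraries, held 28.8 CPM of Gpd1, against 976 to 1169 CPM in female controls, 42.9 CPM of Mttp, against 407 to 506 CPM, and 59.8 CPM of Dgat2, against 474 to 734 CPM. Lpin1, at 166 CPM, and Lpin2, at 459.8 CPM, lay within the range of the female controls, and Mogat1 was at 0.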
